A study of Mus musculus with 4 samples.

Results

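The proteasome subunits were taken as all probes of the deposited scanner files, control spots left out, whose gene name is Psm followed by a letter from a to g and a number. The immunoproteasome genes Psmb8, Psmb9 and Psmb10 were not counted among them. This gave 71 probes of 45 genes among 41174 probes of 27827 gene names. The 20S core particle had 20 probes of 16 genes and the 19S regulatory particle 31 probes of 17 genes. The activators and the inhibitor had 11 probes of 5 genes, and the assembly chaperones 9 probes of 7 genes.

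The samples were primary smooth muscle cells of the mouse aorta (strain label C57LB/6) of the genotypes Atg7F/F SM22α-Cre+ and Atg7+/+ SM22α-Cre+. Both genotypes thus carried Cre recombinase, driven by the SM22α promoter of smooth muscle, and they differed in the floxed Atg7 allele. Atg7 is an E1-like enzyme needed to form autophagosomes. RNA came from passages 4 to 10, cultured with 10% bovine serum in DMEM/F-12. Each genotype had 2 biological replicates, about which the labels say no more, and ages are not stated. Extracts of equal replicate number were co-hybridised on 2 Agilent arrays, once with each assignment of the dyes Cy3 and Cy5, so 4 arrays gave n = 2. Log2 ratios are Atg7F/F over Atg7+/+, and a replicate is the mean of its dye-swapped arrays. A value with ± is the mean of both replicates with their SD (n = 2). If the replicates were not separate cultures or animals, the spread between them is technical.

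The proteasome degrades proteins that carry ubiquitin chains. Its barrel-shaped 20S core is built of outer rings of alpha subunits, which gate the entrance, and inner rings of beta subunits, of which Psmb5, Psmb6 and Psmb7 cut the peptide chain. The 19S particle docks on the barrel, binds ubiquitin chains, removes them and threads the unfolded substrate in with a ring of ATPases. In place of the 19S particle, the core can bind activators that do not use ATP. The transcription factor Nfe2l1 (Nrf1) is known to raise proteasome genes together when proteasome activity is short, and autophagy is the other main route of protein breakdown in the cell. The comparison answers whether proteasome transcripts differed between cells of the floxed and the normal Atg7 genotype.

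The targeted gene came first as a check of the labels. Atg7 had log2 ratios of -1.26 and -1.09 on the arrays of replicate 1 and, in replicate 2, -0.96 and -1.57, lower in Atg7F/F on every array. Its mean was -1.22 ± 0.07. The size depended on the background correction of this dim probe, and the mean was -1.73 with no offset and -2.35 with the scanner software's processed signals, in which the replicates gave -1.83 and -2.86. The floxed exon is not named in the labels, so the probe may or may not sit inside it.

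Each probe is a 60-base oligonucleotide. The sequences of those on which the values below turn most are given 5′ to 3′, in the sense of the transcript, as the scanner files hold them. The first set measured the cutting subunits. The second measured the members at the ends of the order of ratios, the 19S assembly chaperone Psmd5 and the 19S subunit Psmd8. The third shows genes with a pair of probes on different parts of the transcript.
Psmb5: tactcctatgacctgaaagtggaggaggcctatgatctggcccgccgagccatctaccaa
Psmb6: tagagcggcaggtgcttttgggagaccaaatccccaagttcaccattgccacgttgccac
Psmb7: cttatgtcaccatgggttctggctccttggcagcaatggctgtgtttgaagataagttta
Psmd5: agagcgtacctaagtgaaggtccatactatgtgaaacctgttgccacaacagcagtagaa
Psmd8: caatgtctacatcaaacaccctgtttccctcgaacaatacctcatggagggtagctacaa
Psma4, first probe: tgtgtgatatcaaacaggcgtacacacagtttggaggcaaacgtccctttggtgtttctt
Psma4, second probe: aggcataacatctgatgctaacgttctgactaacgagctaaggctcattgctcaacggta
Psme2, first probe: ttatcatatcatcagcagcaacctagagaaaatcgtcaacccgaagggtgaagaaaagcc
Psme2, second probe: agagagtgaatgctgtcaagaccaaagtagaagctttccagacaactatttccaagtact
On the mm9 build of the files, the Psmb6 probe lies at chr11:70341014-70341073 on the plus strand and the Psmb5 probe at chr14:55233161-55233220 on the minus strand. The Psmb7 probe spans chr2:38468966-38489385 on the minus strand, over far more genome than its length, so it crosses at least one intron. The Psmd5 probe lies at chr2:34708108-34708167 and the Psmd8 probe spans chr7:29961170-29962121, both on the minus strand. No annotation of mm9 was used here, so exons are not numbered.

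Proteasome transcripts were measured well in both genotypes. A probe was tested if it was well above background in at least one genotype on all 4 arrays and had no outlier spot. Of the 71 probes, 59 passed, which represent 44 of the 45 genes, and all 59 were above background in both genotypes on every array. Over the whole array 41.5% of probes passed. The gene with no tested probe was Psmb11, a beta subunit known from the thymus, and 8 of the 12 probes left out were above background in no channel. Before normalization, the median mean signal of the 59 probes ran from 3198 to 4758 over the 8 channels, where the median of all probes tested ran from 233 to 368. Signals of different probes set no order of transcript levels, since probes differ in how they bind.

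No proteasome subunit passed the test for a difference between the genotypes. In limma's moderated test over 17100 probes, 0 of the 59 had an adjusted p below 0.05, beside 0% of all probes, and the smallest adjusted p of any probe was 0.512. At an unadjusted p below 0.05 there were 536 probes in all (3.13%) and 0 of the 59. The mean log2 ratios of the members ran from -0.26 for Psmd8 to 0.17 for Psmd5, and their median was -0.01, beside 0.00 for all probes tested. The members at the ends changed with the processing. The highest was a probe of Psmd11 with no offset (0.25) and with processed signals (0.35), and Psmb6 with no background subtraction (0.17) and with median centring (0.30). Psmd11 has a bright and a dim tested probe, described below. The lowest was Psma8 with processed signals (-0.29) and with median centring (-0.18), and Psmd8 in the other settings of the scaling. All 59 had a 95% interval that lay inside a 2-fold difference in both directions, beside 95.5% of all probes. Of these, 50 lay inside a 1.5-fold difference, beside 82.7%. A p that misses the threshold does not show equal levels. The targeted gene Atg7 missed it as well, although its mean of -1.22 was a 2.33-fold lower level in Atg7F/F. In limma its p was 5.3e-04 before adjustment and 0.9997 after it. The adjusted test thus did not call even this difference, so the count of 0 of the 59 sets no limit on the size of a difference. The intervals are limma's moderated ones, and 2.09 of their 3.09 degrees of freedom come from a prior over all probes tested. Their width is therefore not set by the 2 replicates of a probe alone, and they hold for loess with the offset.

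**Figure D1:**
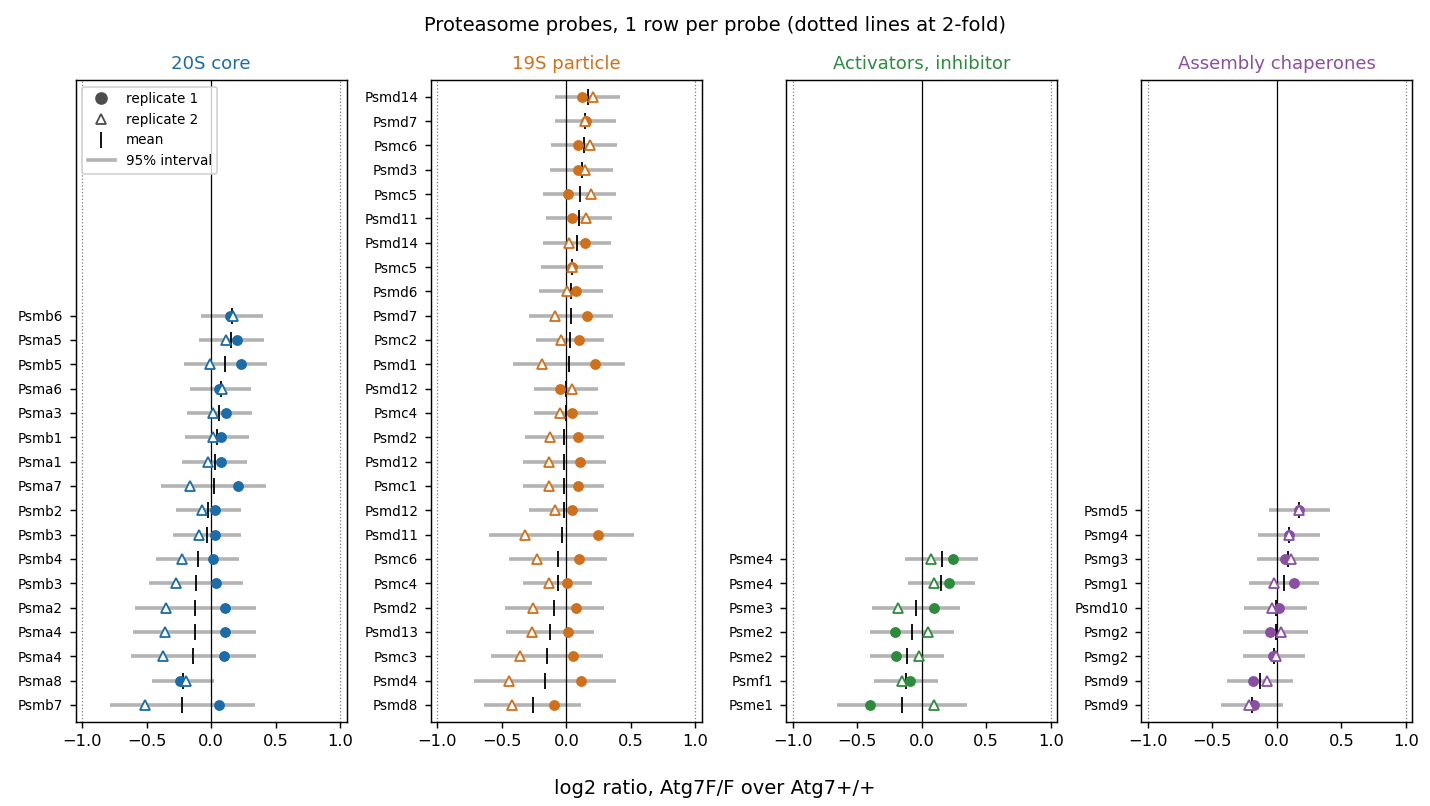
Log2 ratios of Atg7F/F over Atg7+/+ for the 59 proteasome probes tested, with filled circles for replicate 1, open triangles for replicate 2, a black tick for their mean and a grey bar for limma's 95% interval. Rows are probes ordered by mean, and all grey bars stay between the dotted lines that mark a 2-fold difference.

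The 2 replicates differed for the core and the 19S particle. Core probes had a median of 0.08 in replicate 1 and of -0.10 in replicate 2, and 19S probes had 0.09 and -0.09. In replicate 1, 48 of the 59 members were higher in Atg7F/F, beside 49.8% of all probes, among them 16 of 17 core and 24 of 26 19S probes. In replicate 2, 23 of the 59 were higher, beside 50.8% of all probes, among them 5 core and 10 19S probes. Higher in replicate 1 and lower in replicate 2 were 29 of the 59 (background 26.4%). Lower in replicate 1 and higher in replicate 2 were 4 probes, of Psmd12, Psme1, Psme2 and Psmg2 (background 27.4%).

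This replicate difference held under 4 ways of scaling and not under the fifth. With no offset, with no background subtraction and with the scanner software's processed signals, the core and 19S medians stayed above 0 in replicate 1 and below 0 in replicate 2. With median centring in place of loess, the median of all probes in replicate 2 was 0.06, and the core and 19S medians there turned to 0.07 and 0.08. The core and 19S medians then lay near the median of all probes, and 38 of the 59 members were above 0 in replicate 2. The share of all probes above 0 was not counted in that setting. Across the 59 probes the ratios of replicates 1 and 2 had a Pearson correlation of 0.04, and across all 17100 probes one of -0.09. Probes are not independent replicates, and the replicates share no extract.

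**Figure D2:**
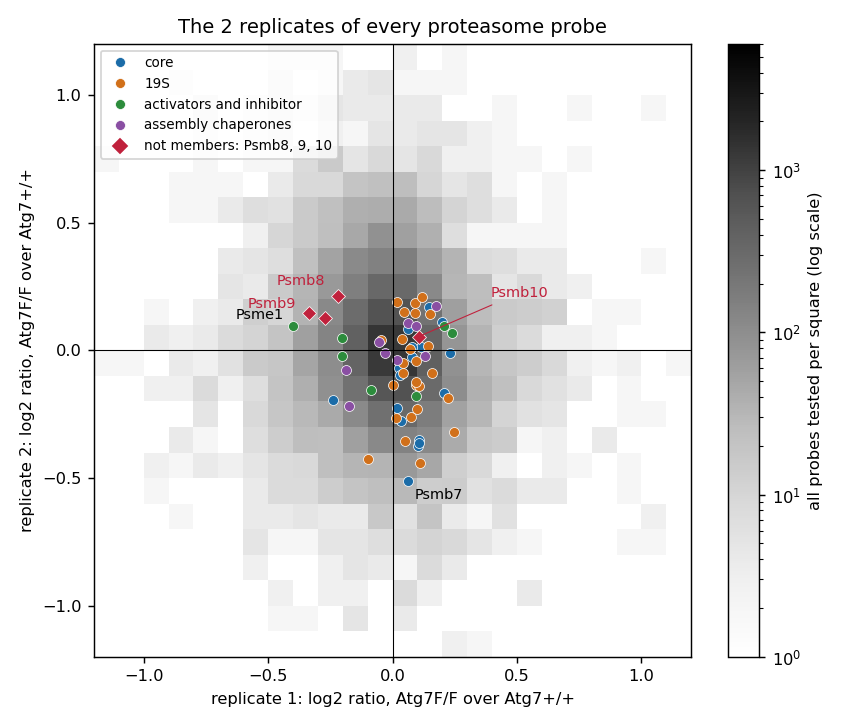
Log2 ratio of every tested proteasome probe in replicate 1 (horizontal) and replicate 2 (vertical), coloured by part of the particle, over grey squares that count all probes tested. Of the 59 members, 29 lie in the lower right field with loess, and Psmb8 and Psmb9, which are not members, lie in the upper left one. With median centring the replicate 2 medians of core and 19S lie above 0, as does that of all probes.

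In the core, the catalytic subunits did not share a pattern. Psmb6, the subunit with caspase-like activity, had log2 ratios of 0.16 and 0.14 on the arrays of replicate 1 and, in replicate 2, 0.15 and 0.18. It was higher in Atg7F/F on all 4 arrays, and the arrays differed little. Its mean was 0.16 ± 0.02, 1.12-fold, with a 95% interval from -0.08 to 0.40 and an unadjusted p of 0.126 in limma. The adjusted p was 0.9997. With median centring it was above 0 on 2 arrays, with a mean of 0.30. As scanned, the Cy5 signals of Psmb6 were 38235 and 42028 in Atg7F/F (replicates 1 and 2) and 32700 and 37870 in Atg7+/+, and did not overlap. The Cy3 signals were 22944 and 28727 in Atg7F/F and 21274 and 25452 in Atg7+/+. There the genotypes overlapped, and in each dye and replicate Atg7F/F was the higher one.

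Psmb5, the chymotrypsin-like subunit that most proteasome inhibitors target, had ratios of 0.09 and 0.37 in replicate 1 and, in replicate 2, -0.13 and 0.11. Its mean was 0.11 ± 0.17, with a 95% interval from -0.21 to 0.43. The Cy5 signals were 21249 and 19023 in Atg7F/F and 18112 and 19613 in Atg7+/+. The Cy3 signals were 15247 and 14447 in Atg7F/F and 12685 and 14859 in Atg7+/+. In these unscaled signals Atg7F/F was the higher one in replicate 1 in both dyes and the lower one in replicate 2 in both, so the genotypes overlapped. Over all probes tested, Atg7F/F was also dimmer in replicate 2, with medians of 306 against 321 in Cy5 and 233 against 247 in Cy3. Once scaled, Psmb5 in replicate 2 was at -0.01 with loess and at 0.23 with median centring.

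Psmb7, the trypsin-like subunit, had the second lowest mean of all members with loess and the offset, -0.22 ± 0.40, with the widest interval of the 59, from -0.79 to 0.34. Its arrays gave -0.27 and 0.39 in replicate 1 and, in replicate 2, -0.76 and -0.26. In both replicates the array with Atg7F/F in Cy5 was the lower one, and the array with it in Cy3 the higher one. The Cy5 signals were 5204 and 3261 in Atg7F/F and 4736 and 5362 in Atg7+/+, and the Cy3 signals were 4285 and 3198 against 4230 and 4493. In replicate 2 Atg7F/F was lower in both dyes, and in replicate 1 it was slightly higher in both, in signals not scaled for the brightness of the arrays.

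Among the alpha subunits, Psma5 had the highest mean, 0.16 ± 0.06, with ratios of 0.20 and 0.20 in replicate 1 and, in replicate 2, 0.11 and 0.12. Its Cy5 signals were 16799 and 15890 in Atg7F/F and 13802 and 15053 in Atg7+/+, and its Cy3 signals 10517 and 11228 against 9460 and 10732. Atg7F/F was above Atg7+/+ in every pair of channels, and the Cy3 ranges of the genotypes overlapped. Its 95% interval ran from -0.09 to 0.41.

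Psma8, an alpha subunit known from male germ cells, had the lowest mean of the alpha subunits and, with loess and the offset, the smallest unadjusted p of the 59 members. Its ratios were -0.25 and -0.23 in replicate 1 and, in replicate 2, -0.07 and -0.33. The mean was -0.22 ± 0.03, with a 95% interval from -0.46 to 0.02 and an unadjusted p of 0.065 in limma. Its only probe has no RefSeq accession and was taken by its gene name, so its match to the gene was not checked. The probe was dim, with Cy5 signals of 293 and 281 in Atg7F/F and 311 and 344 in Atg7+/+. Its Cy3 signals were 193 and 203 in Atg7F/F and 235 and 248 in Atg7+/+. Atg7F/F was the lower one in each dye and replicate, in signals not scaled for the brightness of the arrays.

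Psma4, another ring subunit, was measured by both probes printed above, which gave 0.10 and 0.10 in replicate 1 and, in replicate 2, -0.38 and -0.36. The opposite signs of the replicates were thus seen by each probe. Over the core as a whole, 3 of 17 probes were higher in Atg7F/F on all 4 arrays (Psma5, Psmb1 and Psmb6), beside 10.2% of all probes. One, Psma8, was lower on all 4, beside 10.1%. The core medians on single arrays were 0.14 and 0.05 in replicate 1 and, in replicate 2, -0.07 and -0.21. The other core members had means between -0.14 for Psma4 and 0.07 for Psma6.

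The 19S particle showed the same small values. Its 26 tested probes had a median mean ratio of -0.004, with 9 ATPase probes between -0.15 and 0.14 and 17 non-ATPase probes between -0.26 and 0.16. Every one of the 9 ATPase probes was above 0 in replicate 1, and 3 were in replicate 2. No ATPase probe kept one sign on all 4 arrays. The ATPases Psmc1 to Psmc6 form the ring that unfolds substrates.

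Psmd8, a lid subunit, had the lowest mean of all members with loess and the offset, with ratios of -0.13 and -0.07 in replicate 1 and, in replicate 2, -0.46 and -0.38. It was lower in Atg7F/F on all 4 arrays, with a mean of -0.26 ± 0.23. The 95% interval ran from -0.64 to 0.11 and the unadjusted p in limma was 0.114. The Cy5 signals were 10942 and 7534 in Atg7F/F and 11080 and 10675 in Atg7+/+, and the Cy3 signals 7100 and 5725 against 7851 and 7936. In these unscaled signals the Atg7+/+ extracts were close to each other, and the Atg7F/F extract of replicate 2 stood below the other 3. That extract also had the lowest median signal over all probes tested in each dye, 306 in Cy5 and 233 in Cy3.

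Of the other 19S probes, 3 were higher in Atg7F/F on all 4 arrays. They belonged to Psmd7, a partner of the deubiquitinase in the lid (0.15 ± 0.01), and to Psmd14, that deubiquitinase (0.16 ± 0.06). The third carries the name of Psmd11, a lid subunit (0.10 ± 0.07). For each of these genes the other tested probe changed sign between arrays. The third probe was dim, with Cy5 signals of 111 and 112 in Atg7F/F over backgrounds of 82 and 80.5. Its coordinates run on the minus strand and those of the brighter Psmd11 probe on the plus strand. It may therefore not read the Psmd11 transcript. The brighter probe of Psmd11 gave 0.25 in replicate 1 and -0.32 in replicate 2, with a mean of -0.04, so the probes of this name differed in sign. The ubiquitin receptor Psmd4 had 0.11 and -0.44 in the replicates, and the scaffold subunit Psmd2 had 0.09 and -0.12 by its brighter probe. With median centring, 1 of the 59 members was higher on all 4 arrays and 0 were lower.

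Different probes of a gene mostly gave like values. Of the 14 member genes with several tested probes, 12 had means of one sign, and the probe means differed by a median of 0.06 and at most by 0.20, for Psmc6. None reached 0.5. Over all 3880 genes with several tested probes the median difference was 0.08, and 1.88% differed by at least 0.5.

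The activators were not alike. Psme1 and Psme2 encode the alpha and beta subunits of PA28, a ring that interferon induces together with the immunoproteasome. Psme1 had ratios of -0.38 and -0.42 on the arrays of replicate 1 and, in replicate 2, 0.11 and 0.08. Its mean was -0.15 ± 0.35, with a 95% interval from -0.65 to 0.35. The Cy5 signals were 4334 and 5967 in Atg7F/F and 5440 and 5815 in Atg7+/+, and the Cy3 signals 2830 and 4354 against 3832 and 4332. The Atg7F/F extract of replicate 1 was the lowest of the 4 in both dyes.

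Psme2 followed the same order by its brighter probe, with -0.19 and -0.22 in replicate 1 and, in replicate 2, 0.06 and 0.03, a mean of -0.08 ± 0.18 and an interval from -0.40 to 0.25. Its second probe gave -0.16 and -0.24 in replicate 1 and, in replicate 2, 0.07 and -0.12. The brighter probe had Cy5 signals of 7570 and 8322 in Atg7F/F and 8260 and 8196 in Atg7+/+. Its Cy3 signals were 4832 and 5890 in Atg7F/F and 5729 and 6076 in Atg7+/+. The probes thus agreed that Atg7F/F was below Atg7+/+ in replicate 1, and differed over replicate 2 on one array.

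The immunoproteasome subunits, which are not members, were read beside PA28. Psmb8 replaces Psmb5 in the core, Psmb9 replaces Psmb6 and Psmb10 replaces Psmb7. The brighter probe of Psmb8 gave -0.21 and -0.23 in replicate 1 and, in replicate 2, 0.22 and 0.21. Psmb9 gave -0.26 and -0.42 in replicate 1 and, in replicate 2, 0.13 and 0.16. Both were lower in replicate 1 and higher in replicate 2, as Psme1 was, on every array of those replicates. Psmb10 gave 0.08 and 0.13 in replicate 1 and, in replicate 2, 0.02 and 0.09, higher on all 4 arrays, and on 2 with median centring. The means of Psmb8, Psmb9 and Psmb10 were -0.004 ± 0.31, -0.10 ± 0.34 and 0.08 ± 0.04.

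Some markers of other cell types followed the same order of replicates, and others did not. Of the macrophage and leukocyte list, 4 of 8 genes on the array were tested, and Emr1, Fcgr1, Itgam and Ptprc were above background in no channel on any array. Of its 6 tested probes, both of Lyz2 were lower in replicate 1 and higher in replicate 2, the brighter one with -0.50 and 0.58. Cd68 gave -0.43 and -0.30 and Cd14 -0.04 and -0.13, both lower on all 4 arrays, and the brighter probe of Csf1r gave 0.08 and 0.23. The summed normalized signal of these 6 probes was 2186 in replicate 1 and 4804 in replicate 2 of Atg7F/F, against 2817 and 3461 for Atg7+/+. This sum mostly follows the brighter Lyz2 probe, whose average log2 signal was 11.2, where the rest of the list had 6.8 to 7.8. Of 6 fibroblast markers, Dcn, Lum and Pi16 were lower in replicate 1 and higher in replicate 2. Cd34 gave -0.36 and -1.02 and Dpt -0.57 and -0.09, both lower on all 4 arrays, and Pdgfra gave 0.06 and 0.08. The sums of this list were 7299 and 4494 against 9246 and 5244, lower in Atg7F/F in both replicates. The part of these cell types in the PA28 and immunoproteasome values was not tested. In bulk RNA, fewer cells of a type and less RNA per cell cannot be told apart.

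**Figure D3:**
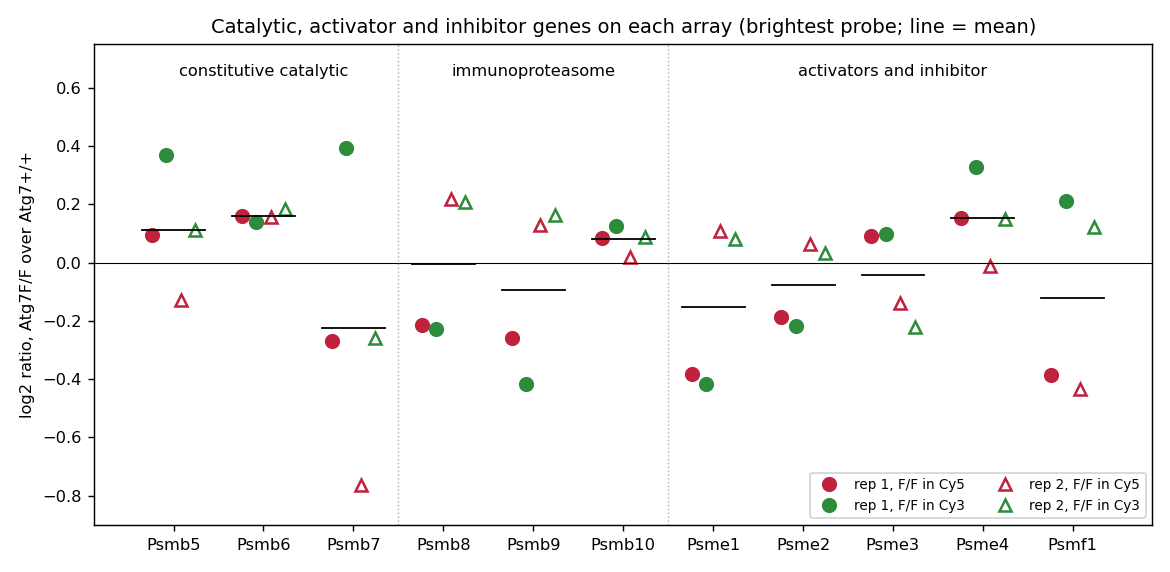
Log2 ratio of Atg7F/F over Atg7+/+ on each of the 4 arrays for the catalytic, immunoproteasome, activator and inhibitor genes (brightest tested probe; filled circles replicate 1, open triangles replicate 2, red with Atg7F/F in Cy5, green with it in Cy3, line at the mean). Psmb8, Psmb9, Psme1 and Psme2 lie below 0 in replicate 1 and above 0 in replicate 2, Psmb6 stays between 0.14 and 0.18 on all 4 arrays, and Psmb7 and Psmf1 split by dye.

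Psme3, which forms the nuclear PA28 gamma ring, had the opposite order, with 0.09 and 0.10 in replicate 1 and, in replicate 2, -0.14 and -0.22. Its mean was -0.04 ± 0.19, with an interval from -0.38 to 0.30. Its Cy5 signals were 682 and 488 in Atg7F/F and 609 and 641 in Atg7+/+, and its Cy3 signals 475 and 398 against 452 and 468. Atg7F/F held both the highest and the lowest Cy5 signal and both the highest and the lowest Cy3 signal.

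Psme4, the large monomeric activator PA200, was the highest of the activators. Its brightest probe gave 0.15 and 0.33 in replicate 1 and, in replicate 2, -0.01 and 0.15, a mean of 0.15 ± 0.12 with an interval from -0.13 to 0.44. A second probe of lower signal gave 0.17, 0.25, 0.08 and 0.11 in the same order, with a mean of 0.15 ± 0.08, and was higher on all 4 arrays. The brightest probe had Cy5 signals of 13669 and 12769 in Atg7F/F and 10968 and 12694 in Atg7+/+. Its Cy3 signals were 9175 and 9729 in Atg7F/F and 8002 and 9505 in Atg7+/+. Atg7F/F was above Atg7+/+ in each pair, by little in replicate 2.

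Psmf1 encodes PI31, a protein named as a proteasome inhibitor. Its ratio followed the dye, with -0.38 and -0.43 where Atg7F/F was in Cy5 and 0.21 and 0.12 where it was in Cy3. Averaging the dyes left -0.09 and -0.15 in the replicates, a mean of -0.12 ± 0.05 and an interval from -0.37 to 0.12. The Cy5 signals were 439 and 352 in Atg7F/F and 452 and 441 in Atg7+/+, and the Cy3 signals 383 and 349 against 400 and 434. The Atg7F/F extract was below its Atg7+/+ partner in each dye and replicate.

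The 7 tested probes of activators and inhibitor had a median of -0.08, with -0.09 in replicate 1 and 0.05 in replicate 2. With no background subtraction the replicate 2 median was -0.04, so its sign depended on the processing.

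**Figure D4:**
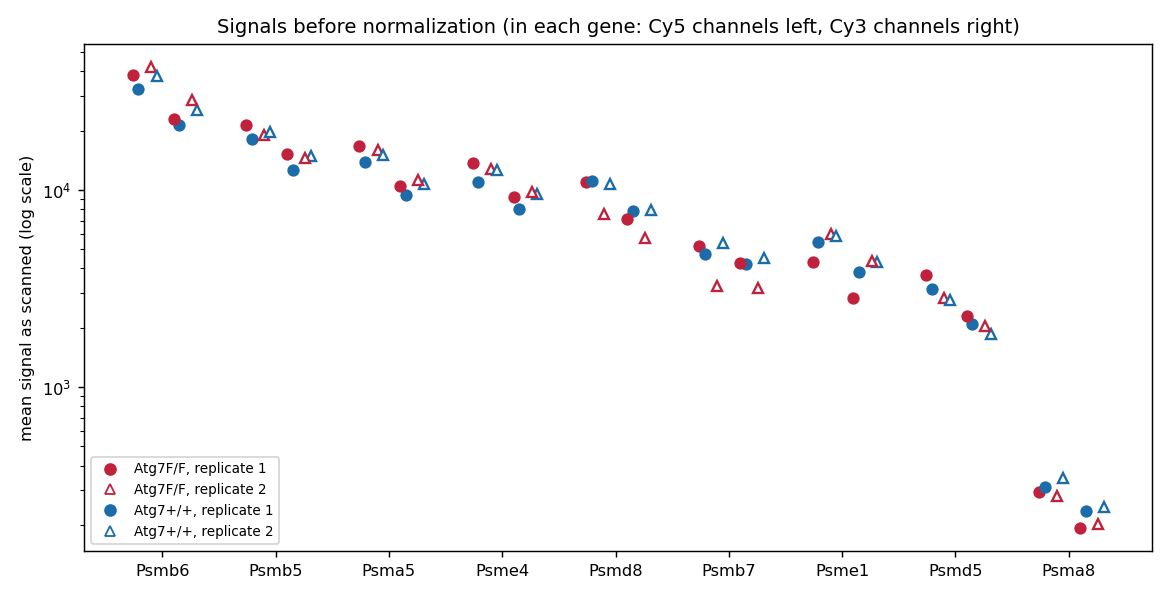
Mean signal as scanned, before any normalization, on a log scale for 9 proteasome genes in all 8 channels (red Atg7F/F, blue Atg7+/+, filled circles replicate 1, open triangles replicate 2, Cy5 channels to the left within a gene). Psmb6 in Cy5 lies between 32700 and 42028, and the Atg7F/F extract of replicate 2 is the lowest for Psmb7 and Psmd8 in both dyes. That extract also has the lowest median over all probes tested in both dyes.

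The assembly chaperones, which help build the particle and leave it before it works, differed least between the replicates of the 4 groups of members, though not with median centring. Psmd5, which holds ATPases of the base during assembly, had the highest mean of all members with loess and the offset, with 0.28 and 0.06 in replicate 1 and, in replicate 2, 0.31 and 0.04. Both replicate means were 0.17, the 95% interval ran from -0.07 to 0.41, and the unadjusted p in limma was 0.105. Its Cy5 signals were 3699 and 2827 in Atg7F/F and 3131 and 2778 in Atg7+/+, and its Cy3 signals 2300 and 2053 against 2094 and 1866. Atg7F/F was the higher one in every pair of channels.

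Psmd9, a further chaperone of the base, was lower in Atg7F/F on all 4 arrays by both of its probes, with means of -0.20 ± 0.03 and -0.13 ± 0.08. These 2 base chaperones thus had opposite signs. Psmd10 had -0.01 ± 0.04. The core chaperones Psmg1 to Psmg4 had means between -0.02 and 0.10, and Psmg3 was higher on all 4 arrays with 0.09 ± 0.03. The SD between the replicates had a median of 0.03 over the 9 chaperone probes, 0.09 over core, 0.11 over 19S and 0.13 over activator and inhibitor probes, beside 0.11 for all probes tested. With median centring the chaperone median was 0.10 and the core median 0.09.

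Over all 59 members, 9 probes were higher on all 4 arrays and 4 were lower, which is 1 probe each of Psma5, Psmb1, Psmb6, Psmd5, Psmd7, Psmd11, Psmd14, Psme4 and Psmg3, and of Psma8 and Psmd8 and both of Psmd9. Over all probes tested the shares were 10.2% higher and 10.1% lower, and the members were not tested as a set. None of these members had a mean of 0.3 or more in size.

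The exchange of dyes moved the ratios of members and of other probes. The dye difference of a probe is its log2 ratio with Atg7F/F in Cy5 minus that with Atg7F/F in Cy3, and it would be 0 without a dye effect. It adds the dye shifts of both arrays, where the mean ratio averages arrays, so the scales differ. In size it was above the mean ratio for 38 of the 59 members (64.4%), beside 62.6% of all probes. The size of the dye difference had a median of 0.14 over the 59 members, beside 0.12 over all probes tested, and of 0.21 over the 19S probes. Across the 59 members it had a Pearson correlation of 0.91 between the replicates, beside 0.75 across all probes, where all points share arrays of one slide. Psmd2 by its dimmer probe had the largest, -0.75 and -0.69, followed by Psmb7 and Psmf1. The dye difference and the GC content of the probe correlated at -0.40 across the 59 members and at -0.28 across all probes, whose median GC contents were 43.3% and 45.0%. Averaging the swapped arrays removes a dye difference that is the same on both, so it does not enter the means above.

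**Figure D5:**
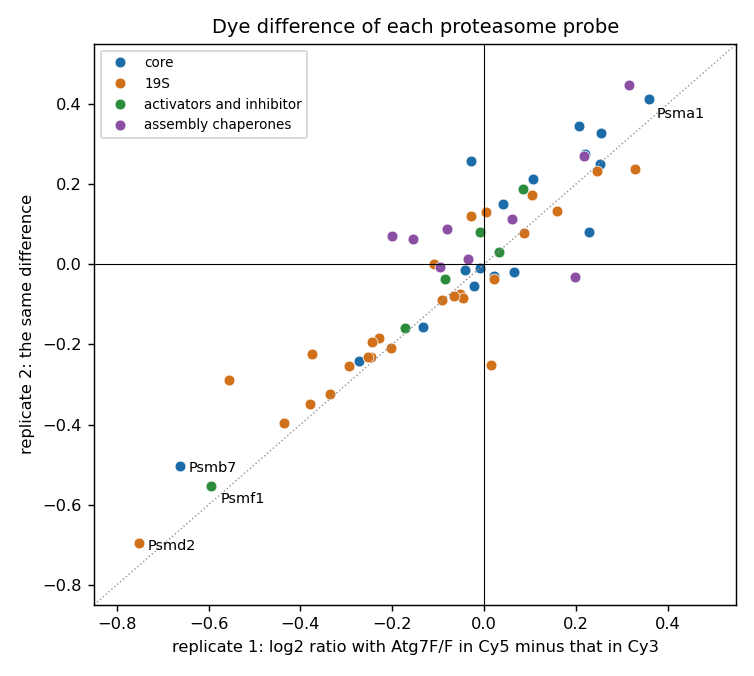
Dye difference of each tested proteasome probe, that is the log2 ratio with Atg7F/F in Cy5 minus that with it in Cy3, in replicate 1 (horizontal) and replicate 2 (vertical), with a dotted line of equality. The probes follow the line, with Psmd2, Psmb7 and Psmf1 at its lower end.

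The partners of the proteasome were read from a list of 32 names of ubiquitin genes, shuttle factors, assembly factors and regulators, of which 28 were on the array and 26 had a tested probe. None of the 26 passed the adjusted test. Their median was -0.02, with 0.06 in replicate 1 and -0.08 in replicate 2, beside 0.00 for all probes. By the brightest probe, 4 of the 26 genes were higher on all 4 arrays (Nfe2l1, Nfe2l2, Rps27a and Usp14), beside 10.2% of all probes. Lower on all 4 arrays were 2 genes, beside 10.1% of all probes.

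Ubb, a polyubiquitin gene, had -0.18 ± 0.06, with 0.09 on one array and values below 0 on the other 3. Rps27a, which encodes ubiquitin fused to a ribosomal protein, had 0.15 ± 0.07.

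The transcription factors Nfe2l1 and Nfe2l2 (Nrf2) had 0.24 ± 0.25 and 0.20 ± 0.15, both higher on all 4 arrays and on 3 with median centring. Nfe2l1 gave 0.02 and 0.10 in replicate 1 and, in replicate 2, 0.37 and 0.45, so most of its mean came from replicate 2. The core and 19S medians of that replicate lay below 0 with loess, and at 0.07 and 0.08 with median centring. Whether Nfe2l1 bears on the members was not tested. Pomp, which matures the core, had -0.16 ± 0.31. The deubiquitinases Usp14 and Uchl5 had 0.16 ± 0.05 and -0.09 ± 0.33, the ubiquitin receptor Adrm1 -0.13 ± 0.21 and Txnl1, a thioredoxin-like protein of the 19S particle, 0.16 ± 0.001.

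Promoter windows of RefSeq on GRCm38.p6, from 250 bases before to 50 bases after the start of each gene, were found for 37 of the 45 member genes. Psma8, Psmb1, Psmb2, Psmb7, Psmc3, Psmd3, Psmd7 and Psmg2 had no entry. The ETS-type letters CCGGAAG, on either strand, stood in windows of 14 of the 37 genes, 37.8%, beside 9.93% of 27025 genes. Of the 14 19S genes with a window, 9 held them, and 1 of the 12 core genes did. The letters TGACNNNGC of the antioxidant response element, which Nfe2l1 and Nfe2l2 are known to bind, stood in 6 of the 37, 16.2%, beside 14% of all genes. The letters CCAAT stood in 13 of the 37, 35.1%, beside 41.1%. None of these 3 motifs contains another. The 250 bases before the start are printed for a pair of catalytic subunits with the response element and a pair of 19S genes with both motifs, with those letters in capitals.
Psmb5, chr14:54617996-54618245, minus strand: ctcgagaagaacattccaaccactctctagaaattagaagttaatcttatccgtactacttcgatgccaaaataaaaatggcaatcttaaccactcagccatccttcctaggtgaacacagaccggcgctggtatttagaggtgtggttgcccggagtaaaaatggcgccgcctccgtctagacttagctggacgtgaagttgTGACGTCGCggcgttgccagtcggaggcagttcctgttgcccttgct
Psmb6, chr11:70525107-70525356, plus strand: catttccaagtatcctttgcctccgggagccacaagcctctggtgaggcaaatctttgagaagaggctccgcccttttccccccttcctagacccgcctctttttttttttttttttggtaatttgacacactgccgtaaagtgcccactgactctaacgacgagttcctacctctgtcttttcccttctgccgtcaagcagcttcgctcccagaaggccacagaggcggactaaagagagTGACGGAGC
Psmc6, chr14:45329574-45329823, plus strand: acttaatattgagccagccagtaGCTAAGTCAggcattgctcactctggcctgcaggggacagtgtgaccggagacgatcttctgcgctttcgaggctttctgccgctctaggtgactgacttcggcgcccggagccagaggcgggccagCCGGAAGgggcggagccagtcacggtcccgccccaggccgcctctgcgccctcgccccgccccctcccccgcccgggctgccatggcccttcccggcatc
Psmd12, chr11:107479278-107479527, plus strand: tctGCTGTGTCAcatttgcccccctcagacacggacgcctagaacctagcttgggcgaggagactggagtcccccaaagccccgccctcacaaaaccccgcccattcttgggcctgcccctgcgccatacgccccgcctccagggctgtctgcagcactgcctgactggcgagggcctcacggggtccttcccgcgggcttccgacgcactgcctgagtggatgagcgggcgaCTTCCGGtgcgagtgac
In these stretches the first base of the response element lies 47 bases before the start in Psmb5, 9 in Psmb6, 227 in Psmc6 and 247 in Psmd12. The tested genes with the response element (n = 6) had a median ratio of 0.05, from -0.20 to 0.16, and those without it (n = 30) one of -0.01. Genes with the ETS letters (n = 14) had a median of -0.02 and those without (n = 22) one of 0.00. A match of letters is a description and not a binding site.

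Smooth muscle markers were present and other cell types were not absent. Of 7 smooth muscle markers, 6 were tested in both genotypes and Myocd was above background on only some arrays. Their median ratio was -0.16. All 12 endothelial markers had a tested probe, and the median ratio over the 12 was -0.36. Of them, 10 were lower in Atg7F/F on all 4 arrays, beside 10.1% of all probes. The summed normalized signals of the endothelial probes were 13774 and 15127 for Atg7F/F, and 15771 and 27503 for Atg7+/+. Whether endothelial cells in the cultures bear on the values of the members was not tested. All 59 members were free of saturated spots and outlier flags.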

How the data were processed

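Total RNA of 4 extracts was labelled and hybridised on 4 two-colour arrays. Mean and background intensity per spot and channel are in the deposited scanner files, per the file headers. The submitters' processing notes name Agilent Feature Extraction 10.1.1.1. The files also hold a log10 ratio of the software's processed signals, per the file headers, which was not used here. The deposited series table holds log2 ratios by the authors, and they equalled Atg7F/F over Atg7+/+ of the processed signals within 0.001 for 100% of probes; their median was 0.199 and 0.0809 on the arrays with Atg7F/F in Cy5 (replicates 1 and 2) and -0.0939 and -0.0371 with it in Cy3. Dyes and genotypes came from the labels.

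Mean intensities were corrected by normexp (offset 50, which pulls ratios of dim probes toward 0) and normalized by loess with controls at weight 0, in limma 3.58.1 and R 4.3.3. Repeat spots, 10 for each of 245 probes, were averaged. The 36 probes with an outlier spot were left out. The test was two-sided with lmFit and eBayes of 2 replicate ratios against 0, with 3.09 degrees of freedom (prior 2.09), adjusted by Benjamini-Hochberg over 17100 probes at 0.05. The code was tested on simulated data. The number of arrays limits the precision.

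The replicate block was part of the test by construction, since each array holds extracts of one number. Deviations of same-numbered extracts correlated at 0.20 across probes.

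Named in full were the catalytic subunits, the 3 highest and 3 lowest members, the activators and the inhibitor, by their brightest tested probe. Members with one sign on 4 arrays and a mean of at least 0.3, or with probes differing by 0.5, would have been added. Other genes were Atg7, the immunoproteasome, Nfe2l1, Nfe2l2, Pomp, Usp14, Uchl5, Adrm1 and, among the 4 other partners of smallest p, Ubb and Txnl1; the others are not reported here. Further genes were named from counts of 5 or fewer, or after their values were seen. The members and lists were chosen with earlier results of these data known. Of the 71 member probes, 61 had a RefSeq accession, and all 61 matched their symbol. Alternatives covered the background correction, processed signals, the deposited table, median centring, the filter, 1 probe per gene, the prior, the arrays as a random block or independent, no replicate block and each replicate left out.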

Additional observations from a re-analysis of the deposited data

How the results depend on the processing

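In each of the 12 alternative fits, 0 proteasome probes passed limma's adjusted test, and the lowest and highest member ratios lay between -0.287 and 0.354. The probes called over the whole array were 0 in 9 of the 12, 9 with the pair as a random block, 27 with the 4 arrays as independent and 1 in the unpaired fit with no replicate block, in which 0 members were called too. Median centring shifted the median of all probes on one array by 0.27 and moved most values. With it the median ratio was 0.0750 over all proteasome probes, 0.109 over core and 0.0511 over assembly chaperone probes, the counts on all 4 arrays were 1 higher and 0 lower, and the median dye difference was 0.78. With 1 probe per gene the assembly chaperone median was 0.0544. Leaving out 1 replicate gave no test, since 1 pair is left. The medians then ranged from -0.0400 to 0.0771 over all proteasome probes, from -0.0110 to 0.0184 over assembly chaperones and from -0.0873 to 0.0488 over activators and inhibitor. Over 14 settings Psma5, Psma8, Psmb6, Psmd5, Psmd8, Psme4 and Psmf1 kept the sign of their mean, Psmb5, Psmb7 and Psme1 lost it in 1, and Psme2 and Psme3 in 2. The cause of these shifts was not tested. No slide or batch term could be fitted, since all 4 arrays share 1 slide.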
